A study of Homo sapiens with 12 samples.

Results

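The genes described here are the human genes of the 5 classes of core and linker histones, H1, H2A, H2B, H3 and H4. They were chosen by name, as every protein-coding gene of GENCODE v44 whose symbol starts with *H1-*, *H2AC*, *H2BC*, *H3C* or *H4C*. This gave 74 genes, of the 60676 genes in the deposited table. They comprise 10 genes of H1, 17 of H2A, 19 of H2B, 13 of H3 and 15 of H4. By position, 55 lie on chromosome 6 and 13 on chromosome 1, where the known histone gene clusters are, and the remaining members lie on other chromosomes. The name of clustered histone genes therefore does not hold for all of them: *H1-10* on chromosome 3 is a gene outside the clusters, for a linker histone that is made outside S phase as well.

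Histone proteins package DNA, with H2A, H2B, H3 and H4 in the nucleosome core and H1 as the linker histone that binds the DNA between cores. The genes of the clusters are mostly transcribed in S phase, when new DNA needs histones, and each class is encoded by many gene copies. Their mRNA is unusual in that it normally has no poly(A) tail but ends just after a short stem-loop, which is bound by the protein SLBP. A few cluster genes are known to also give polyadenylated mRNA in differentiated or slowly dividing cells, and genes of replication-independent histones such as *H1-10* give polyadenylated mRNA throughout. The libraries came from a SENSE mRNA-Seq kit, which starts from polyadenylated RNA. The counts are therefore expected to leave out most mRNA that ends at the stem-loop, so a low count here says little about the total mRNA of such a gene.

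The study asked how PC3 cells, a prostate cancer line from a bone metastasis, respond to the WNT-binding secreted protein SFRP2 and to collagen type I. COL1-PC3SFRP2 were cells carrying the *SFRP2* coding sequence on coated plastic, COL1-PC3 were control cells on the same surface, CCP-PC3SFRP2 were the *SFRP2* cells on uncoated plastic (CCP) and CCP-PC3 were the control cells on it, with 3 libraries in each of the 4 groups. The coating was collagen from rat tails. All cells had been transfected with a Sleeping Beauty plasmid for puromycin resistance and a red fluorescent protein, without an insert in the control cells, then selected with puromycin and sorted for fluorescence, and RNA was taken on day 5. The sources name 1 transfected population of each kind, so a difference between PC3SFRP2 and PC3 may also be a difference between these populations. The labels call the libraries of a group biological replicates but do not say whether each came from a culture of its own, so part of the spread behind the p-values may be technical.

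The libraries held 5529459 to 9975972 counts in genes. *SFRP2* itself had 10801 to 28200 CPM (counts per 1000000 counts of the library) in the 6 libraries of PC3SFRP2 cells and 10.53 to 25.2 CPM in the 6 of PC3 cells. The epithelial keratins 8, 18 and 19, *EPCAM* and *CDH1* and the mesenchymal *VIM* were found in all 12 libraries, while *KLK3*, a prostate luminal gene that PC3 is known to lack, had no count in 11 of them. The 6 genes named first summed to 3841 to 6328 CPM in COL1-PC3SFRP2 and 1883 to 2530 CPM in the others. Fibroblast markers summed to 7.02 to 17.2 CPM, nearly all *COL1A1*, and leukocyte markers to 0.110 to 0.951 CPM. The part of these markers in the results was not tested. COL1-PC3SFRP2 stood apart in 2 more measures that do not rest on histone genes. Its libraries gave 7.17% to 16.8% of counts to mitochondrial genes, against 19.8% to 24.0% in the 9 others, and across genes the deviation of a library from the mean of libraries of other groups, COL1-PC3SFRP2 left out of that mean, had a Spearman correlation with GC content of 0.77 to 0.87 in COL1-PC3SFRP2 and of -0.56 to 0.61 in the others. The third library of COL1-PC3SFRP2 was the most extreme in both, and which sample it is could not be settled. Its counts equal, at every gene, those of a column named as the fourth such library in a further deposited table of all libraries, where the column named as the third holds other counts, 7300197 in all. The values given for the third library may therefore be those of another sample of this kind. Results on COL1-PC3SFRP2 are therefore also given after adjusting every library for GC content and transcript length (the GC correction), after leaving out the third library, and with the counts of the table of all libraries.

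Of the 74 histone genes, 72 were in the table, while *H2AC18* and *H2AC19* were not matched. The 46 that reached a sum of 10 counts over all 12 libraries were tested: 5 of H1, 10 of H2A, 16 of H2B, 7 of H3 and 8 of H4. Just inside this minimum lay a total of 10 counts and just outside it a total of 8. Of the 26 under it, 11 had 1 to 8 counts and 15 had none in 88395171 counts, which allows a level of up to 0.0339 CPM, counting error only. Those at 0 were *H1-1*, *H1-5*, *H1-7*, *H2AC1*, *H2AC7*, *H2AC15*, *H2BC1*, *H2BC10*, *H3C4*, *H3C11*, *H3C14*, *H3C15*, *H4C7*, *H4C13* and *H4C15*. Histone copies can be too alike for a read of 50 bases to be placed, so each member's canonical transcript was searched in the genome. At 11 of the 15 members with no count, at least 95% of all 50-base windows occurred once in the genome, while 3 of the 15 had no unique window. Repeated sequence is thus present at few of the members with no count.

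The stem-loop at the end of the mRNA is the sequence that sets these genes apart. It was searched as the stem arms GGNNC and GNNCC around the loop TTNTNA, where N is any base, 16 bases in all, on the coding strand within 120 bases after the stop codon. It was found in 69 of the 74 histone genes and in 73 of 19947 canonical stop codons (0.366%), of which only 4 belong to no member. Among the members without it were *H1-7*, *H1-8*, *H1-10* and *H2BC12L*. The sequences below are the ends of those genes whose values carry the results that follow, read from GRCh38 and written 5′ to 3′ on the strand of the gene, with the stem-loop in capitals.
H4C8 (chr6:26285122-26285151, minus strand): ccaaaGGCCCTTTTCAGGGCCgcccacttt
H3C10 (chr6:27810511-27810540, plus strand): ccaaaGGCTCTTTTCAGAGCCacccacatg
H2AC25 (chr1:228457360-228457389, minus strand): ataaaGGCTCTTTTCAGAGCCacctactat
H1-2 (chr6:26055735-26055764, minus strand): caaaaGGCTCTTTTCAGAGCCaccactgat
H2BC12 (chr6:27146357-27146386, minus strand): ccaaaGGCTCTTTTAAGAGCCacttaaatt
All 15 genes of H4 had a stem of GGCCC with GGGCC, as in *H4C8*. In the other classes 52 of 54 had a stem of GGCTC with GAGCC, as in *H3C10*, so the H4 genes differ from the rest by 1 base pair of the stem. *H1-10* has no such stem-loop, and its annotated end carries the polyadenylation signal AATAAA, in capitals here.
H1-10 (chr3:129314775-129314804, minus strand): ttttttgggcacAATAAAgcgtttaaacct

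The levels of the members differed widely. Levels per kb of the canonical transcript depend on which transcript is canonical, 519 bases long for *H2AC6* and 2224 for *H2BC21*. Some annotations run far past it, so genes can be compared on this scale only roughly. The level averaged over the 12 libraries was 211 CPM per kb for *H2AC6*, a gene of histone H2A. It was 146 CPM per kb for *H1-2* and 105 CPM per kb for *H2BC12*. The leading genes of the other classes were *H4C8* at 101.1 CPM per kb, *H4C9* at 57.9 CPM per kb and *H3C10* at 34.2 CPM per kb. *H1-10* was at 15.7 CPM per kb. A list of 8 members known for polyadenylated mRNA, with *H1-2*, *H1-10*, *H2AC6*, *H2BC4*, *H2BC5*, *H2BC12* and *H2BC21* among them, is followed through the comparisons.

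**Figure D1:**
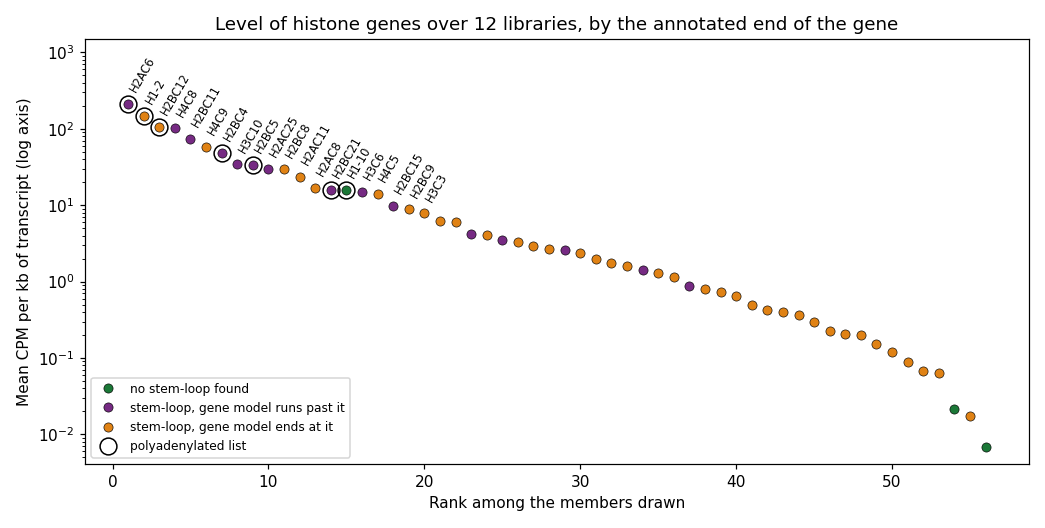
Mean level of each histone gene over the 12 libraries, in CPM per kb of the canonical transcript on a log axis, against its rank among the members drawn. Green points are members without a stem-loop, purple points members whose annotation runs more than 100 bases past the stem-loop, orange points the others, and rings mark the list of polyadenylated members, with *H2AC6*, *H1-2* and *H2BC12* at the upper left.

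The annotation itself tells some of these members apart. For 17 members with a stem-loop at least 1 annotated transcript ran more than 100 bases past it, among them *H4C8* (7522 bases past it), *H3C10* (769), *H3C6* (1862), *H2AC6* (14432), *H2BC21* (1729) and *H2AC25* (22592), while the annotation of 52 stopped at it. Of the 17, 15 passed the count minimum, with a median over the 17 of 7.13 CPM. Of the 50 such genes with a short end in the table, 29 passed, with a median of 0.216 CPM. Genes with a longer annotated end thus had the higher counts, as a description only, since transcripts are annotated from RNA of this kind. *H1-2*, *H2BC12* and *H4C9* are exceptions, with high counts and an annotated end 4, 5 and 9 bases after the stem-loop. The CPM compared here were not scaled by length, and a longer annotation can collect reads over more bases. The part of this in the difference was not tested. For *H2BC12* only 42.8% and for *H2BC18* only 25.96% of the 50-base windows were unique, so their counts depend on how reads with several matches were treated, which is not given in the sources used here.

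Promoters were compared in the 250 bases before the start site, as given by RefSeq on GRCh38.p14, for the 67 members with an entry. CCAAT, the box bound by NF-Y, was found on either strand in 56 of 67 (83.58%), against 32.01% of 35116 promoters of all genes. By class it was in 16 of 16 H2A, 18 of 18 H2B, 11 of 11 H3 and 8 of 9 H1 promoters, but in 3 of 13 of H4. TATAAA was found in 65.67% of members and in 10.72% of all promoters. The octamer ATTTGCAT, the site of OCT1, which is known to drive H2B genes, was in 14 of 18 H2B and 11 of 16 H2A promoters and in none of H1, H3 or H4, against 1.632% of all. The promoters below, 150 bases up to the start site, belong to the members with the lowest p among those lower and those higher in COL1-PC3SFRP2 than in COL1-PC3, with matches of CCAAT on either strand and of TATAAA in capitals.
H4C8 (chr6:26285535-26285684, minus strand): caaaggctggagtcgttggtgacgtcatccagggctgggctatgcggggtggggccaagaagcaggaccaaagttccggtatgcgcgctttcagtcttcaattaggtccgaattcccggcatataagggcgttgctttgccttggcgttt
H3C10 (chr6:27809901-27810050, plus strand): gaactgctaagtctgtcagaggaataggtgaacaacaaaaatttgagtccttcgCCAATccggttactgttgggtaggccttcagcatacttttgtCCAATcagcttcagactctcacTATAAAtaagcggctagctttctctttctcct
H1-10 (chr3:129316287-129316436, minus strand): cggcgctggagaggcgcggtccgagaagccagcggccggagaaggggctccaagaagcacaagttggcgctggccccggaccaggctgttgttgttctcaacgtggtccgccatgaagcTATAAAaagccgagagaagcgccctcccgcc
H2AC25 (chr1:228457874-228458023, minus strand): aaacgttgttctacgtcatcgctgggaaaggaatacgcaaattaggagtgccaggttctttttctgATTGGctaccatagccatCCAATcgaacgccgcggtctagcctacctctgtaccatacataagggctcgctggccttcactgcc
*H3C10* and *H2AC25* thus share a pair of CCAAT boxes, at 96 and 54 and at 84 and 66 bases before the start, and moved in opposite directions below. *H4C8* holds none of the motifs searched in this window. These matches describe letters and say nothing of which factors were bound.

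On CCP, SFRP2 left no histone gene past the threshold. Of the 46 genes tested, 0 had an adjusted p under 0.05 in CCP-PC3SFRP2 against CCP-PC3 by the quasi-likelihood test of edgeR, which called 0.0786% of all 20364 genes (0.0295% higher and 0.0491% lower). Before adjustment 2 had p under 0.05, *H3C10* and *H2BC9*, both lower, and 0 were higher, against 2.55% and 2.36% of all genes, and DESeq2 called 0 members and 0.679% of the genes it adjusted. In bulk samples such as these, fewer cells that express a gene and less RNA per cell cannot be told apart. The fold changes leaned to one side. They were negative for 38 of 46 members, with a median log2 fold change of -0.32, against -0.04 over all genes tested, and for 8 of 8 of the polyadenylated list, with a median of -0.28.

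In the single libraries this lean was small, and it was orderly at some of the abundant members only. At *H1-2*, *H2BC11*, *H2BC4* and *H4C9*, for example, the groups overlapped. *H3C10*, 1 of the genes of histone H3.1, had 15.9, 16.1 and 15.1 CPM in CCP-PC3SFRP2, against 22.96, 21.8 and 19.8 CPM in CCP-PC3. *H4C8*, 1 of the copies for histone H4, had 43.8, 39.3 and 39.4 CPM in CCP-PC3SFRP2, against 52.4, 49.4 and 48.6 CPM in CCP-PC3. At both genes all *SFRP2* libraries lay below all controls. The groups were separated in this way, lower in CCP-PC3SFRP2, for 8 of 46 members, against 9.11% of all genes, and in the other direction for 0, against 10.2%. The log2 fold changes were -0.51 (standard error 0.19) for *H3C10* and -0.35 (standard error 0.20) for *H4C8*, and neither passed, with adjusted p = 0.846 and 1 by the quasi-likelihood test of edgeR. After both the GC correction and removal of the third COL1-PC3SFRP2 library, 3 members were lower, among them *H2AC6* and *H2BC12* at an adjusted p of 0.0322 and 0.0286 by the same test, which then called 4.19% of all genes.

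Collagen alone moved no histone gene past the threshold either. In COL1-PC3 against CCP-PC3, 0 of 46 were called by the quasi-likelihood test of edgeR, which called 0% of all genes, while before adjustment 1 was higher and 0 lower at p under 0.05, against 1.98% and 1.9%. DESeq2 called 0 members and 0.0295% of the genes it adjusted. The median log2 fold change was 0.31 over the members, against -0.02 over all genes. *H2BC12*, an H2B gene, had 60.6, 54.9 and 54.4 CPM in COL1-PC3, against 49.4, 44.6 and 36.4 CPM in CCP-PC3, without overlap and with a log2 fold change of 0.45 (standard error 0.25). *H2BC11* and *H2BC4*, further H2B genes, and *H4C9* also lay higher in all libraries of COL1-PC3. In all, 5 of 46 members were separated upwards, against 4.1% of all genes, and 4 downwards, against 8.8%.

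On COL1, SFRP2 moved histone genes in both directions. In COL1-PC3SFRP2 against COL1-PC3, 11 of 46 passed, 5 higher and 6 lower, where the quasi-likelihood test of edgeR called 35.1% of all genes, 18.1% higher and 17.1% lower, and DESeq2 called 12 members and 47.6% of the genes it adjusted. Groups were separated upwards for 6 members and downwards for 7, against 24.2% and 18.2% of all genes. The 11 calls were 5 to 7 without the first or the second library of CCP-PC3SFRP2, without any 1 of COL1-PC3 or without the first of COL1-PC3SFRP2. The median log2 fold change was 0.10 over the members and 0.01 over all genes, so neither the number called nor the median sets histone genes apart from the rest of the table. By class the calls were mixed, and no test compared the classes. Both calls among the 8 H4 genes were lower, with a median log2 fold change of -0.50 over the class and 3 of the 8 positive. Among the 7 H3 genes 2 were lower and 1 higher, with a median of 0.13, while the H1 and the H2A genes had 1 higher each and the 16 H2B genes 2 higher and 2 lower. Of the 8 polyadenylated members 1 was higher, *H1-10*, and 1 lower, *H2BC21*.

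The decreases with the lowest p were at *H4C8* (ENSG00000158406, chr6:26277609-26285638, minus strand) and *H3C10* (ENSG00000278828, chr6:27810051-27811300, plus strand). *H4C8* had 20.4, 26.1 and 12.7 CPM in COL1-PC3SFRP2, against 56.3, 55.8 and 51.9 CPM in COL1-PC3. *H3C10* had 9.95, 8.72 and 9.77 CPM in COL1-PC3SFRP2, against 19.2, 17.3 and 22.96 CPM in COL1-PC3. Neither pair of groups overlapped, and for both genes the libraries of COL1-PC3SFRP2 were also the lowest of all 12. The log2 fold change was -1.54 for *H4C8* (standard error 0.21, adjusted p = 0.000363 by the quasi-likelihood test of edgeR) and -1.12 for *H3C10* (standard error 0.20, adjusted p = 0.00121 by the same test). *H4C8* was called lower in all 24 alternatives run, with log2 fold changes of -1.78 to -1.05 and adjusted p from 3.95e-20 to 0.0215. *H3C10* was called lower in 23 of 24, from -2.01 to -1.03, and missed the threshold only with the GC correction on the table of all libraries, at an adjusted p of 0.06. In the table of all libraries the third library of COL1-PC3SFRP2 had 39.5 CPM of *H4C8* and 12.5 CPM of *H3C10*, still below every COL1-PC3 library. For *H4C8* it was then no longer below all CCP-PC3SFRP2 libraries, the lowest of which had 39.3 CPM.

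Of the H4 and H3 genes tested beside these, *H4C5* and *H3C6* were also called lower and *H3C3* higher, and those not called had fold changes in both directions. *H4C5* had 4.98, 4.28 and 0.362 CPM in COL1-PC3SFRP2, against 8.31, 8.87 and 5.85 CPM in COL1-PC3 (log2 fold change -1.32, standard error 0.45, adjusted p = 0.0337 by the quasi-likelihood test of edgeR). *H4C9* had 30.02, 17.4 and 4.52 CPM in COL1-PC3SFRP2, against 33.3, 30.3 and 33.3 CPM in COL1-PC3, and was not called (log2 fold change -0.99, standard error 0.39, adjusted p = 0.0604 by the same test). *H3C6*, another H3.1 gene, had 4.15, 6.18 and 3.80 CPM in COL1-PC3SFRP2, against 9.16, 10.4 and 6.84 CPM in COL1-PC3 (log2 fold change -0.95, adjusted p = 0.0112). At both H4 genes the third library of COL1-PC3SFRP2 lay far below its partners. In the table of all libraries it had 4.38 CPM of *H4C5* and 25.2 CPM of *H4C9*, and neither H4 gene nor *H3C6* was then called. Without that library *H4C5* stood at -0.83 (adjusted p = 0.0264) and *H4C9* passed at -0.56 (adjusted p = 0.0303 by the quasi-likelihood test of edgeR). *H2BC21*, an H2B gene with a long polyadenylated transcript, had 31.7, 32.01 and 21.9 CPM in COL1-PC3SFRP2 and 37.5, 37.5 and 39.4 CPM in COL1-PC3 (log2 fold change -0.48, adjusted p = 0.0397), and did not pass without the third library (-0.37, adjusted p = 0.0522). *H2BC15*, which was named after its values were seen, was the sixth lower member, with a log2 fold change of -0.75 and an adjusted p of 0.0473 by the quasi-likelihood test of edgeR. It kept this call in 9 of 24 alternatives and lost it without the third library (-0.73, adjusted p = 0.0699) and with the table of all libraries (-0.25, adjusted p = 0.706 by the same test), where that library had 7.53 CPM of *H2BC15*, against 4.41 to 6.29 CPM in COL1-PC3.

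The higher members were *H1-10*, *H2AC25*, *H2BC18*, *H3C3* and *H2BC9*. *H1-10*, a linker histone gene, had 47.3, 35.5 and 47.4 CPM in COL1-PC3SFRP2, against 19.3, 16.5 and 15.9 CPM in COL1-PC3 (log2 fold change 1.28, standard error 0.23, adjusted p = 0.00113 by the quasi-likelihood test of edgeR). *H2AC25*, the H2A gene of the small cluster on chromosome 1, had 24.5, 20.3 and 37.4 CPM in COL1-PC3SFRP2, against 13.4, 13.3 and 8.83 CPM in COL1-PC3 (log2 fold change 1.18, standard error 0.29, adjusted p = 0.00576 by the same test). At both genes the COL1-PC3SFRP2 libraries stood above all 9 others. *H3C3* had 6.47, 4.75 and 6.33 CPM in COL1-PC3SFRP2, against 2.21, 3.52 and 2.87 CPM in COL1-PC3, with a log2 fold change of 0.97 (adjusted p = 0.0249). *H2BC9* had 5.805, 7.13 and 4.16 CPM in COL1-PC3SFRP2, against 2.88, 3.67 and 3.20 CPM in COL1-PC3, with a log2 fold change of 0.75 (adjusted p = 0.0468). *H2BC18*, at 3.15, 2.85 and 1.63 CPM in COL1-PC3SFRP2 and 1.02, 1.07 and 0.993 CPM in COL1-PC3, was at a log2 fold change of 1.24 (adjusted p = 0.0236 by the quasi-likelihood test of edgeR). None of these 5 was called after the GC correction or in the table of all libraries. *H1-10* fell to a log2 fold change of 0.08 with the GC correction (adjusted p = 0.807 by the quasi-likelihood test of edgeR), and in the table of all libraries the third COL1-PC3SFRP2 library was at 10.96 CPM, below every COL1-PC3 library. *H2AC25* was there at 9.59 CPM, within the 8.83 to 13.4 CPM of COL1-PC3. Without the third library *H3C3* missed the threshold (0.85, adjusted p = 0.0507), and *H1-10* (1.15) and *H2AC25* (0.82) kept their calls. *H1-10* has an antisense gene, *H1-10-AS1*, over it and *H2BC18* overlaps *FCGR1A*, and whether the counting used strand is not given in the sources used here.

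**Figure D2:**
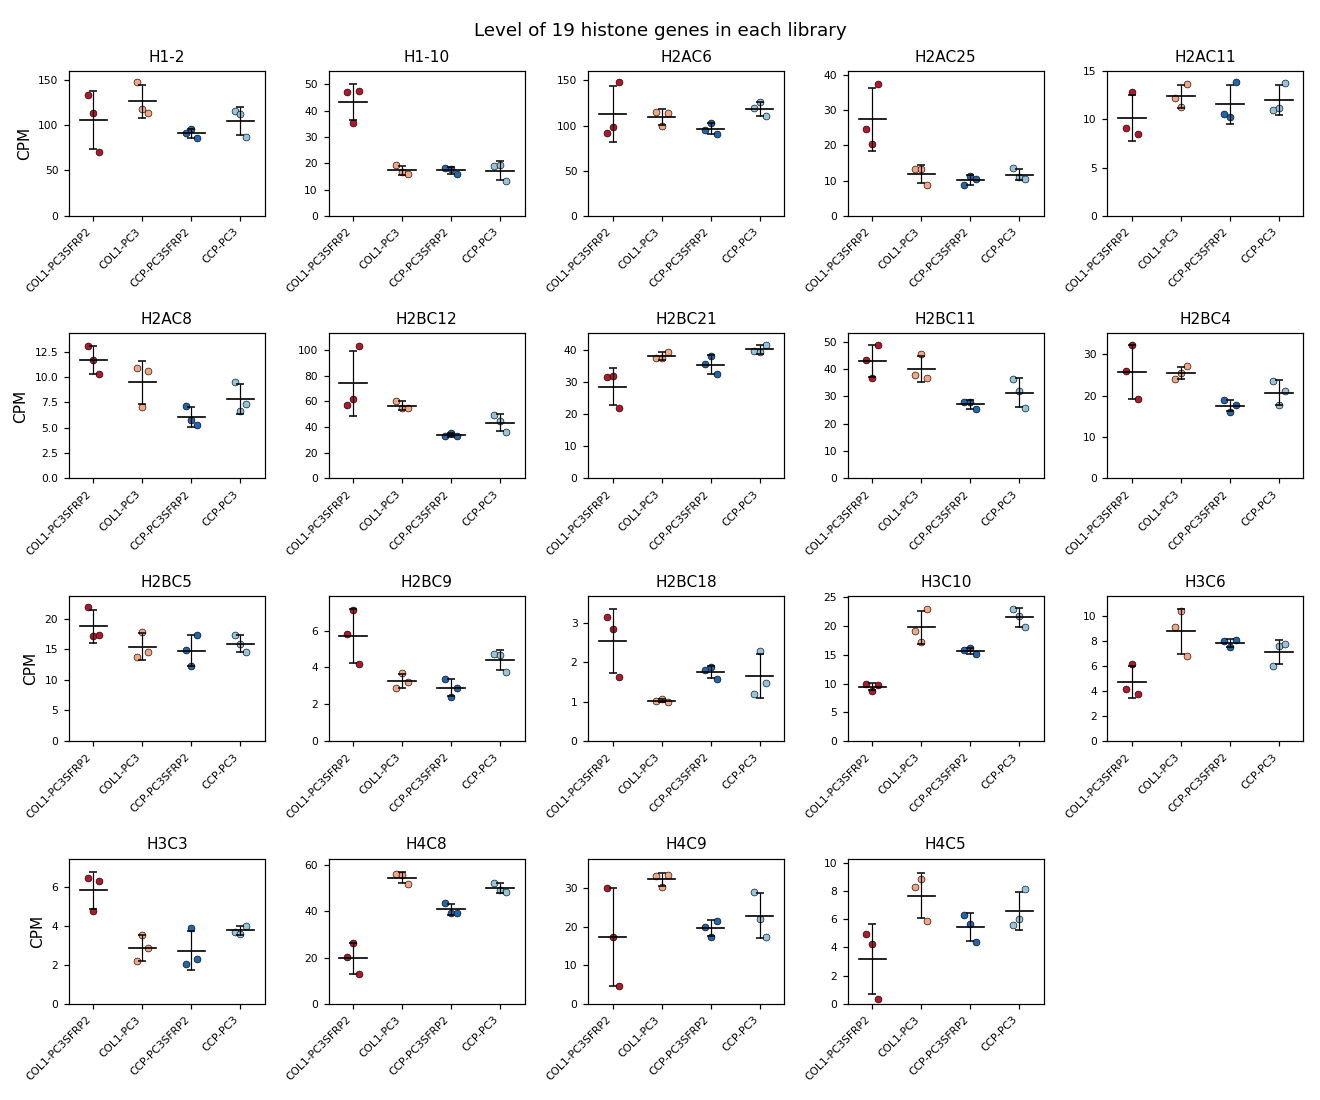
Level in CPM of 19 histone genes in each library, with COL1-PC3SFRP2, COL1-PC3, CCP-PC3SFRP2 and CCP-PC3 from left to right. Points are libraries, the horizontal line is the mean and the bar the SD of 3 libraries, and *H4C8* and *H3C10* in COL1-PC3SFRP2 lie below all other groups while *H1-10* and *H2AC25* lie above them.

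Collagen moved histone genes in both directions in PC3SFRP2 cells, with calls at shares no higher than over all genes. In COL1-PC3SFRP2 against CCP-PC3SFRP2, which shares its COL1-PC3SFRP2 libraries with the comparison before, 9 of 46 members passed upwards and 3 downwards, where the quasi-likelihood test of edgeR called 37.6% of all genes, 19.9% higher and 17.7% lower, and DESeq2 called 12 members and 50.8% of the genes it adjusted. None of the 9 was called with the GC correction or with the table of all libraries. The median log2 fold change was 0.70 over the members and -0.04 over all genes. It was 1.03 over the 10 H2A genes, 1.17 over the 7 H3 genes, 0.60 over the 16 H2B genes, 0.46 over the 8 H4 genes and 0.26 over the 5 H1 genes. Groups were separated upwards for 18 of 46 members, against 23.9% of all genes, and downwards for 5, against 26.6%. Separation upwards was thus more frequent, and downwards less frequent, among the members than over all genes, as a description only. Some of the 18 had few counts, where separation rests on single reads. *H2AC12*, for example, had 4, 2 and 1 counts in COL1-PC3SFRP2 and 0, 1 and 0 in CCP-PC3SFRP2. Separation is not given for the GC correction or for the table of all libraries. *H2BC12* had 57.2, 61.5 and 102.9 CPM in COL1-PC3SFRP2, against 32.9, 35.6 and 33.1 CPM in CCP-PC3SFRP2 (log2 fold change 1.22, standard error 0.25, adjusted p = 0.00213 by the quasi-likelihood test of edgeR). *H2AC8*, an H2A gene, had 13.1, 11.7 and 10.3 CPM in COL1-PC3SFRP2, against 7.16, 5.77 and 5.32 CPM in CCP-PC3SFRP2 (log2 fold change 1.01, adjusted p = 0.00552). Both groups were apart at each of these genes, although at *H2BC12* the third COL1-PC3SFRP2 library alone held the high end, and it was at 45.3 CPM in the table of all libraries. Without that library *H2BC12* was at a log2 fold change of 0.81 (adjusted p = 3.13e-05 by the quasi-likelihood test of edgeR).

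Of the 5 members higher in COL1-PC3SFRP2 than in COL1-PC3, 4 were higher here as well. *H1-10* had 18.02, 17.996 and 15.8 CPM in CCP-PC3SFRP2 below its values in COL1-PC3SFRP2 (log2 fold change 1.40, adjusted p = 0.000699 by the quasi-likelihood test of edgeR). *H2AC25* was higher by 1.52 on the log2 scale (adjusted p = 0.00131), *H3C3* of 1.17 (adjusted p = 0.00824) and *H2BC9* of 1.04 (adjusted p = 0.00836 by the same test). *H2BC11* and *H2BC4* rose by smaller amounts, with log2 fold changes of 0.74 (adjusted p = 0.0111) and 0.61 (adjusted p = 0.0244 by the quasi-likelihood test of edgeR). *H2BC4* overlaps *H1-6*, *H4C3* and *HFE* in the annotation. *H2AC16*, which was named after its values were seen, was called on 9 counts in COL1-PC3SFRP2 and 0 in CCP-PC3SFRP2, and DESeq2 did not call it. The 3 lower members were *H4C8* (log2 fold change -0.995, adjusted p = 0.00214 by the quasi-likelihood test of edgeR), *H3C10* (-0.66, adjusted p = 0.0173) and *H2BC15* (-0.86, adjusted p = 0.022). *H2AC6* was not called, with 91.5, 98.4 and 148 CPM in COL1-PC3SFRP2 and 95.1, 103 and 90.9 CPM in CCP-PC3SFRP2.

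The GC correction turned the balance of these calls. On COL1, 0 members were then higher and 13 lower in COL1-PC3SFRP2 than in COL1-PC3, where 16.2% of all genes were called in either direction. The median log2 fold change was -0.44, with 36 of 46 negative. The 13 were the 6 lower before and 7 more, among them *H1-2*, *H2AC6*, *H2AC11*, *H2BC4*, *H2BC11* and *H2BC12*, so that 6 of the 8 polyadenylated members were lower. *H2AC6* was then at a log2 fold change of -0.79 (adjusted p = 0.000281 by the quasi-likelihood test of edgeR), against 0.01 without the correction. In COL1-PC3SFRP2 against CCP-PC3SFRP2, 0 were higher and 7 lower with the correction, where 14.7% of all genes were called in either direction. Here the median log2 fold change was -0.11 and 18 of 46 fold changes were positive, with *H4C8* at -1.45 and *H3C10* at -1.82. The shares of all genes by direction are not given for the correction. Whether calls on the lower side only are particular to histone genes was not tested. Histone genes are rich in GC, with a median of 58.0% over the 46 members, against 47.8% over all genes tested. Over all genes the log2 fold change of COL1-PC3SFRP2 over COL1-PC3 correlated with GC content at a Spearman correlation of 0.67, and over the 46 members at 0.19, with genes as points that share libraries. With the table of all libraries, 0 members were higher and 2 lower on COL1, *H4C8* (-1.05, adjusted p = 0.0209 by the quasi-likelihood test of edgeR) and *H3C10* (-1.05, adjusted p = 0.0171), where 1.09% of all genes were called. In COL1-PC3SFRP2 against CCP-PC3SFRP2, 0 were called with that table, and 0.0196% of all genes. The decreases of *H4C8* and *H3C10* on COL1 were thus called under each of these ways of processing by itself, and no increase was called with the GC correction or with that table.

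**Figure D3:**
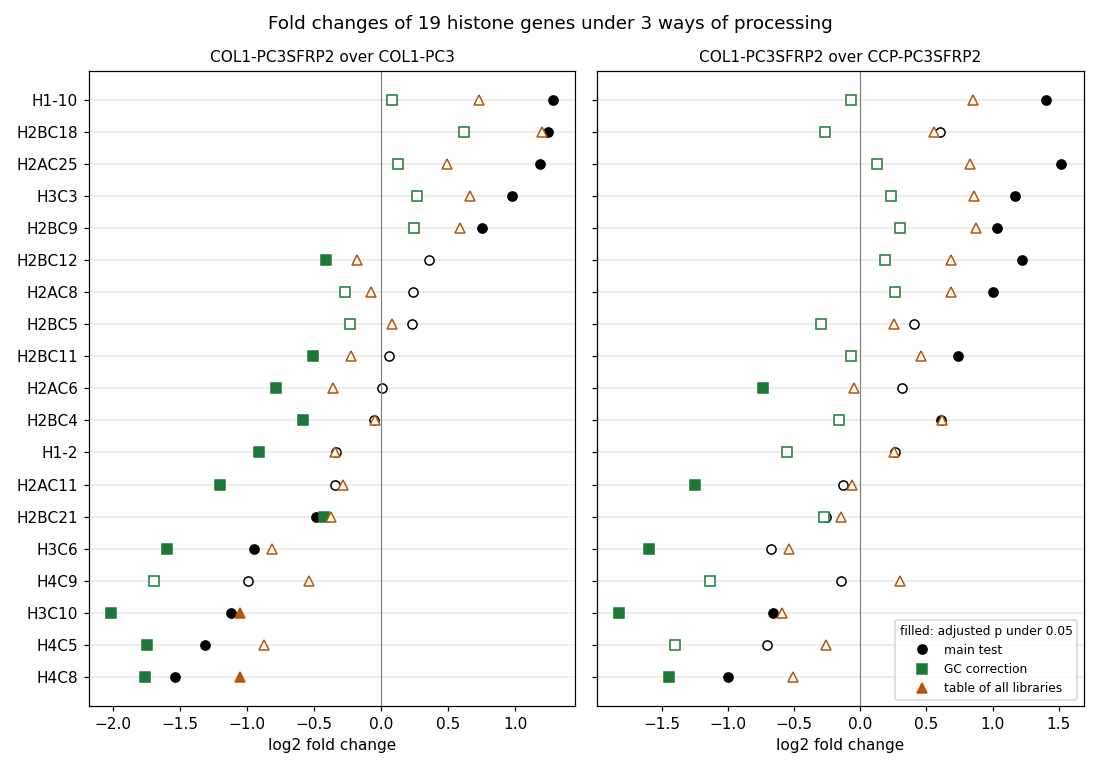
Log2 fold changes of 19 histone genes for COL1-PC3SFRP2 over COL1-PC3 (left) and over CCP-PC3SFRP2 (right), without further correction (circles), with the GC correction (squares) and with the table of all libraries (triangles), where filled marks have an adjusted p under 0.05 by the quasi-likelihood test of edgeR. *H4C8* and *H3C10* on the left are filled in all 3, and every filled mark of the GC correction lies left of 0.

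Sums over a class weigh its abundant members most. The H4 genes summed to 59.5, 50.9 and 20.3 CPM in COL1-PC3SFRP2, against 99.6, 98.5 and 92.8 CPM in COL1-PC3, and to 67.0 ± 4.01 CPM in CCP-PC3SFRP2 and 81.6 ± 6.87 CPM in CCP-PC3 (SD, n = 3 each). The H3 genes summed to 25.2 ± 0.479 CPM in COL1-PC3SFRP2, 35.1 ± 1.27 CPM in COL1-PC3, 29.4 ± 0.665 CPM in CCP-PC3SFRP2 and 34.9 ± 1.67 CPM in CCP-PC3 (SD, n = 3 each). Both sums were lowest in COL1-PC3SFRP2, but the size of the H4 difference from CCP-PC3SFRP2 depended on the third library. In the table of all libraries this library had 71.2 CPM of H4 genes, within the 63.3 to 71.2 CPM of CCP-PC3SFRP2, and the log2 ratio of COL1-PC3SFRP2 over CCP-PC3SFRP2 was -0.15 with that table and -0.28 without the third library. Over COL1-PC3 it was -0.68 and -0.81, against -1.15 with all libraries of the table used. The H3 sum of that library was 22.6 CPM in the table of all libraries and 24.8 CPM in the table used. In the sums these classes lay below CCP-PC3SFRP2 (log2 ratio -0.62 for H4 and -0.22 for H3), while the medians over their members were above it (0.46 and 1.17). With the GC correction these medians were -0.56 for H4 and 0.21 for H3. Of the 8 H4 genes 4 were positive without it, *H4C2*, *H4C3*, *H4C14* and *H4C16*, with only 7 to 14 counts each summed over COL1-PC3SFRP2. *H4C8* and *H3C10* had the highest mean CPM of the H4 and the H3 genes. The H2B genes summed to 229 ± 9.89 CPM in COL1-PC3SFRP2, 211 ± 8.05 CPM in COL1-PC3, 162 ± 2.29 CPM in CCP-PC3SFRP2 and 185 ± 14.5 CPM in CCP-PC3, a log2 ratio over COL1-PC3 of 0.12 that turned to -0.051 with mitochondrial counts left out of the totals and to -0.013 with the table of all libraries. The H2A genes had 167 ± 36.6 CPM in COL1-PC3SFRP2, 148 ± 9.25 CPM in COL1-PC3, 127 ± 5.86 CPM in CCP-PC3SFRP2 and 154 ± 6.42 CPM in CCP-PC3. The sums of H2A overlapped between COL1-PC3SFRP2 and COL1-PC3.

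**Figure D4:**
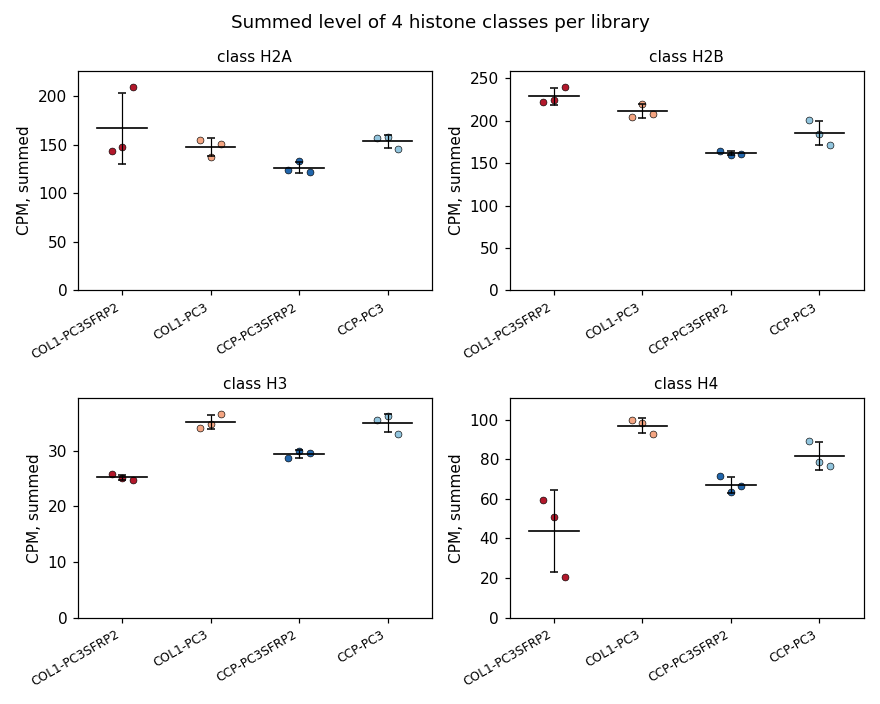
Summed level in CPM of the H2A, H2B, H3 and H4 genes in COL1-PC3SFRP2, COL1-PC3, CCP-PC3SFRP2 and CCP-PC3 from left to right. Points are libraries, the horizontal line is the mean and the bar the SD of 3 libraries, and the sums of H3 and H4 in COL1-PC3SFRP2 lie below those of the other groups, for H4 with the third library at 20.3 CPM.

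The effect of SFRP2 on both surfaces was compared directly, as the log2 fold change on COL1 minus that on CCP. It passed for 4 of 46 members, where the quasi-likelihood test of edgeR called 6.32% of all genes, 3.79% upwards and 2.53% downwards, and DESeq2 called 6 members and 29.6% of the genes it adjusted. *H1-10* (1.34, standard error 0.32, adjusted p = 0.0376), *H2BC9* (1.40, standard error 0.39, adjusted p = 0.047) and *H2AC25* (1.45, standard error 0.41, adjusted p = 0.0476) moved more upwards on COL1. *H4C8* moved more downwards (-1.19, standard error 0.29, adjusted p = 0.0379 by the quasi-likelihood test of edgeR). For *H3C10* the difference was -0.60 and not called (adjusted p = 0.154). The 4 calls were 0 without any 1 library of CCP-PC3 or of CCP-PC3SFRP2, without library 2 or 3 of COL1-PC3, with a replicate block and with the table of all libraries. They were 1 without the first library of COL1-PC3SFRP2 and 7 without the second. With the GC correction 4 members were called as well, all downwards, and only *H4C8* was among the first 4. The shares of all genes called are not given for these settings, so these counts need not be particular to histone genes.

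Genes that act on histone genes and their mRNA, histone chaperones, replacement histones and S phase genes were taken as 4 lists from general knowledge. Of 21 genes for histone transcription and for the processing and decay of histone mRNA, 6 were higher and 6 lower in COL1-PC3SFRP2 than in COL1-PC3, 7 higher and 8 lower in COL1-PC3SFRP2 than in CCP-PC3SFRP2, at the 0.05 threshold of adjusted p by the quasi-likelihood test of edgeR. The counts of all 4 lists stand against 18.1% of all genes called higher and 17.1% lower in the first of these comparisons, and 19.9% and 17.7% in the second. *NPAT*, the coactivator of histone gene transcription at S phase, had 29.4, 38.04 and 15.6 CPM in COL1-PC3SFRP2, against 43.4, 67.1 and 67.9 CPM in COL1-PC3 (log2 fold change -1.17, adjusted p = 0.00248). *LSM10*, a subunit of the U7 particle that cuts histone pre-mRNA, had 117, 102 and 150.5 CPM in COL1-PC3SFRP2, against 57.4, 46.6 and 36.5 CPM in COL1-PC3 (log2 fold change 1.35, adjusted p = 0.00102 by the quasi-likelihood test of edgeR). *UPF1*, a helicase that takes part in histone mRNA decay, had 103, 84.8 and 178 CPM in COL1-PC3SFRP2, against 43.1, 39.4 and 39.3 CPM in COL1-PC3 (log2 fold change 1.56, adjusted p = 0.000959). Libraries of both groups were apart at all 3 genes, but *NPAT* was at a log2 fold change of 0.05 after the GC correction (adjusted p = 0.845), while *LSM10* (0.60, adjusted p = 0.001) and *UPF1* (0.49, adjusted p = 0.00593 by the quasi-likelihood test of edgeR) stayed higher. *SLBP*, which binds the stem-loop shown above, was not called on COL1 (-0.51, adjusted p = 0.0583) and was named after its values were seen. In COL1-PC3SFRP2 against CCP-PC3SFRP2 the leading genes of this list were *LSM10* (1.60), *E2F1* (1.26), a transcription factor of the G1 to S transition, and *UPF1* (1.33). For this list, 5 were higher and 1 lower on COL1 after the GC correction, and 0 were called with the table of all libraries.

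Histone chaperones, which carry histones to DNA, were called in both directions as well. Of 22, 5 were higher and 7 lower in COL1-PC3SFRP2 than in COL1-PC3, with *CABIN1* of the HIRA complex at a log2 fold change of 1.73 (adjusted p = 0.000889 by the quasi-likelihood test of edgeR), *NAP1L1*, a chaperone of H2A and H2B, at -1.31 (adjusted p = 0.00251) and *ANP32E*, which removes H2A.Z, at -1.80 (adjusted p = 0.00276). Against CCP-PC3SFRP2, 6 were higher and 6 lower, led by *TONSL* (1.58) and *IPO4* (1.38) upwards and *ANP32E* (-1.95) downwards. After the GC correction 2 were higher and 4 lower on COL1, and with the table of all libraries 0 were called in either comparison. Of 10 genes of replacement histones, which are made outside S phase, 3 were higher and 3 lower in COL1-PC3SFRP2 than in COL1-PC3, and 3 higher and 2 lower in COL1-PC3SFRP2 than in CCP-PC3SFRP2. On COL1, 2 were higher and 2 lower after the GC correction, and 0 were called in either comparison with the table of all libraries. *H3-3A*, 1 of the genes of histone H3.3, was at a log2 fold change of -1.81 (adjusted p = 0.000609), *H2AZ2* of -0.78 (adjusted p = 0.00243) and *H2AJ* of 1.03 (adjusted p = 0.00493 by the quasi-likelihood test of edgeR) on COL1. *H3-3A* has processed pseudogenes that can share its reads, so its count is uncertain. *H2AX*, whose product marks DNA breaks once phosphorylated, was higher in COL1-PC3SFRP2 than in CCP-PC3SFRP2 at 1.24 (adjusted p = 0.00101 by the same test).

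Genes of S phase, the time at which the cluster genes are transcribed, were higher more often than lower in COL1-PC3SFRP2, with 14 higher and 5 lower of 33 against COL1-PC3 and 14 higher and 6 lower against CCP-PC3SFRP2, where 18.1% and 19.9% of all genes were higher and 17.1% and 17.7% lower. The median log2 fold change of the list on COL1 was 0.15, against 0.01 over all genes. *MCM7*, a subunit of the replicative helicase, had 218, 207 and 293 CPM in COL1-PC3SFRP2, against 112, 108 and 97.0 CPM in COL1-PC3 (log2 fold change 1.14, adjusted p = 0.00105 by the quasi-likelihood test of edgeR). *UHRF1*, which links replication to DNA methylation, was at a log2 fold change of 2.11 (adjusted p = 0.00052). *PCLAF*, a PCNA-associated factor, had 5.14, 6.66 and 4.16 CPM in COL1-PC3SFRP2, against 66.5, 94.6 and 126.9 CPM in COL1-PC3 (log2 fold change -4.22, adjusted p = 1.22e-05 by the quasi-likelihood test of edgeR). All libraries of COL1-PC3SFRP2 thus lay on one side of COL1-PC3 at *MCM7* and *PCLAF*, in opposite directions. *TK1*, the thymidine kinase of S phase, was at 1.65 in COL1-PC3SFRP2 over CCP-PC3SFRP2 (adjusted p = 0.000507 by the quasi-likelihood test of edgeR). On COL1, 12 of the list were higher and 2 lower after the GC correction, and 1 was higher and 0 lower with the table of all libraries. The part of GC content and of the third COL1-PC3SFRP2 library in the values of all 4 lists was not tested beyond these counts.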

How the data were processed

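Polyadenylated RNA of 12 libraries was read in 50 bases. Per the submitters' processing notes STAR and GRCh38 were used, and the authors deposited raw, unscaled counts of each gene; the counting tool and its use of strand are not given in the sources used here. Of 5 deposited tables, 3 were used, and 45 columns of per-sample values were not. Genes that reached a sum of 10 counts were scaled by TMM and tested in 1 fit of 4 groups by the quasi-likelihood test of edgeR 4.0.16 (R 4.3.3, limma 3.58.1), with Benjamini-Hochberg adjustment over 20364 genes, called at an adjusted p under 0.05. DESeq2 1.42.0 was an alternative among 24 settings. The test was checked on simulated counts without a GC trend or a deviating library, so that check does not bear on either. The GC correction fitted splines of GC content (5 df) and log length (3 df) to each library. CPM are counts per 1000000 of the library's total. Total depth sets the precision, from 5529459 to 9975972 counts a library.

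Members and lists were chosen with earlier results of these data known. Named were the polyadenylated list, the 3 members of each class with the highest mean CPM, the 6 called members with the lowest p in each comparison, and of each other list the 3 called genes with the lowest p; others are said to be named after their values were seen. Stem-loops were read from GRCh38 with GENCODE v44 and promoters from RefSeq. Results on some genes, among them 1 member, are not reported here.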

Additional observations from a re-analysis of the deposited data

Results flagged for a closer look

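For 4 histone genes the difference between COL1-PC3SFRP2 and COL1-PC3 was not the same as that between CCP-PC3SFRP2 and CCP-PC3, by a test of the difference itself, the interaction term of the quasi-likelihood test of edgeR. In log2 units the effect of SFRP2 on COL1 minus that on CCP was 1.34 for *H1-10*, 1.45 for *H2AC25*, 1.40 for *H2BC9* and -1.19 for *H4C8*. *H1-10* had adjusted p = 0.0376, *H4C8* 0.0379, *H2BC9* 0.047 and *H2AC25* 0.0476 from that test, all close to the threshold. With the GC correction the difference was 0.06 for *H1-10* (adjusted p = 0.928), 0.32 for *H2AC25* (0.524), 0.82 for *H2BC9* (0.317) and -1.48 for *H4C8* (0.00092 from the same test). With the table of all libraries none passed, at an adjusted p of 0.757 for each of the 4. *H4C8* kept its call in 13 of 24 alternatives, *H1-10* and *H2AC25* in 9 and *H2BC9* in 7. The part of GC content and of the third COL1-PC3SFRP2 library in these 4 differences was not tested further.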

How the results depend on the processing

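Histone genes called numbered 0 (CCP-PC3SFRP2 against CCP-PC3), 11 (COL1-PC3SFRP2 against COL1-PC3), 0 (COL1-PC3 against CCP-PC3), 12 (COL1-PC3SFRP2 against CCP-PC3SFRP2) and 4 (difference of both SFRP2 effects). With the GC correction and without the third COL1-PC3SFRP2 library they became 3 in the first, 1 in the third and 9 in the last. The 11 became 7 with no count filter, 2 with the table of all libraries and 7 with that table and the GC correction. The 12 became 7 with the GC correction, 0 with the table of all libraries and 2 with both. The 4 became 0 with the table of all libraries, with or without the GC correction, and 0 with a replicate block. Leaving out 1 library gave 5 to 10, 9 to 14 and 0 to 7 in place of 11, 12 and 4, and 0 in the others. The block gave 9 and 12 in place of 11 and 12, but there was little sign that library numbers pair the samples. Of 18 pairs with the same number 3 had deviations correlated over 0.1, and 3 of 12 libraries correlated best with their own number. Such deviations from means of 3 libraries cannot show that the samples were unpaired. DESeq2 called 12, 12 and 6 and the second alignment, of 11 libraries, 10, 13 and 6. The share of all genes called also changed with the setting, as given above for some comparisons. Where no such share is given, a changed count need not be particular to histone genes. The cause of these changes was not tested.

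In COL1-PC3SFRP2 against CCP-PC3SFRP2, 3 single genes changed sign with the GC correction: *H2BC11* -0.070, *H2BC4* -0.16 and *H1-10* -0.072, and with it and the replicate block -0.069, -0.16 and -0.079. With it and without the third library *H2BC11* was at -0.11. Each histone gene called without further correction was followed through the settings in the comparison that called it. Of these values 437 kept their direction and call, 203 lost the call and 7 changed sign. Genes called only in another setting are not part of this tally. Class sums moved by more than their spread in 11 cases, with 2 settings, the table of all libraries and leaving out the third COL1-PC3SFRP2 library, chosen for them after seeing the data. In CCP-PC3SFRP2 over CCP-PC3 the log2 ratio with TMM scaling was -0.31 for H1 and -0.31 for the polyadenylated list, against -0.25 and -0.26. Without mitochondrial counts in the total, COL1-PC3SFRP2 over COL1-PC3 was -0.051 for H2B and -0.64 for H3, against 0.12 and -0.48, and H2B was -0.013 with the table of all libraries. In COL1-PC3SFRP2 over CCP-PC3SFRP2, H2B was 0.58 with TMM, 0.35 without mitochondrial counts, 0.41 in the second alignment and 0.37 with the table of all libraries, against 0.50, and H3 was -0.15 with TMM and -0.37 without mitochondrial counts, against -0.22. With 3 libraries a group and most members under 5 CPM, depth limits what can be said of the lower ones: only 19 members averaged over 5 CPM.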

Other observations

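In the table of all libraries the column named as the third COL1-PC3SFRP2 library had, for 3 abundant histone genes, 79.4 CPM of *H1-2*, 89.4 CPM of *H2AC6* and 45.3 CPM of *H2BC12*. The column so named in the table used had 70.4, 148 and 102.9 CPM of these genes, and its counts equal those of the column named as the fourth in the table of all libraries. The other 11 libraries had equal counts in both tables, and whether the columns named as the third hold 1 sample or 2 could not be settled from the labels.

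The second alignment changed the counts of most of the abundant histone genes little. Of 31 members with at least 100 counts over the 11 libraries common to both, 0 differed by more than 1.5 times in their summed count, with 3697 and 3797 counts of *H4C8* and 1467 and 1460 of *H3C10* in the first and the second alignment. *H4C9*, at 2045 and 1519 counts, and *H2BC26*, at 152 and 225, differed by more than these. Members under 100 counts are not part of this tally, and some moved more, such as *H4C14* from 21 to 5 and *H2AC17* from 4 to 28. The 5 members in the table with no unique 50-base window had 29 counts in all 12 libraries.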
